A study of Homo sapiens with 24 samples.

Results

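The genes of the MYC and MAX network are 10 of 20098 protein-coding genes: MYC, MYCL, MYCN, MAX, MXD1, MXD4, MXI1, MNT, MLX and MGA. They were chosen by name for their place in the network, and a peak of S100A8 or S100A9 was assigned to a gene when its summit lay over the gene body or within 50 kb of it. All 10 genes were found in the annotation and all 10 were among the 18126 genes with a peak in at least 2 libraries. For MYC, summits within 500 kb were also collected and are described separately. The cells were MCF-10A–ER-Src, in which a nontransformed human mammary epithelial line carries v-Src fused to the ligand-binding part of the estrogen receptor. Each stable line also expressed S100A8 or S100A9 with a Flag tag from a retroviral vector, so the tagged protein did not depend on its own gene's promoter. Cells received 4-hydroxy-tamoxifen (TAM, 1 µM for 24 h), which switches on Src and transforms them, or the vehicle ethanol (EtOH), which leaves them nontransformed. Chromatin was precipitated with an antibody to Flag in 11 libraries, 2 of S100A8 in EtOH and 3 each of S100A8 in TAM, S100A9 in EtOH and S100A9 in TAM, and MACS2 peaks with q ≤ 1e-7 were used.

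MYC, MYCL and MYCN are basic helix-loop-helix leucine zipper factors that bind the E-box as heterodimers with MAX and mostly activate transcription. MXD1, MXD4, MXI1 and MNT compete for MAX and recruit SIN3 corepressors, and MGA is a large MAX partner found in a variant Polycomb complex. MLX is a MAX-like protein that pairs with the glucose-responsive factors MLXIP and MLXIPL and with some of the MXD proteins. S100A8 and S100A9 are calcium-binding proteins best known as a secreted heterodimer in inflammation.

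Sequences are shown for the promoter sites called in the most libraries among the 9 genes other than MYC, to show the bases under the recurrent summits. The 3 MYC promoter sites, called in 9, 8 and 6 libraries, are described by position further on and their sequence is not shown. Each is the hg19 sequence around the summit on the strand of the named gene, with annotated untranslated bases left out, and capitals mark a match to one of the 5 motifs searched, none of which contains another. The MNT site (chr17:2304858-2304978, minus strand, 10 libraries) lay 520 bp upstream of the nearest coding TSS, and the MYCL site (chr1:40367953-40368073, minus strand, 8 libraries) lay 85 bp upstream. The MAX site (chr14:65569528-65569648, minus strand, 5 libraries) lay 175 bp upstream of its TSS, and the MXI1 site (chr10:111967266-111967362, plus strand, 5 libraries) lay 37 bp upstream. The last is the promoter of FNTB, a farnesyltransferase subunit gene that overlaps MAX. This promoter lies beyond the 3′ end of MAX (chr14:65453469-65453589, plus strand, 8 libraries), among the most recurrent sites outside the members' own promoters. The most recurrent one, at the promoter of MAPKBP1 downstream of MGA, lay within annotated untranslated sequence and is not printed.
MNT: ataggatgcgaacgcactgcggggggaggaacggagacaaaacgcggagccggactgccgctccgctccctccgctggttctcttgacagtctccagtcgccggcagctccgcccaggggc
MYCL: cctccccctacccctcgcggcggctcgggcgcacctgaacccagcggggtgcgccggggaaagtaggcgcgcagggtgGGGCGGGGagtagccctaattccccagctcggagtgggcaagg
MAX: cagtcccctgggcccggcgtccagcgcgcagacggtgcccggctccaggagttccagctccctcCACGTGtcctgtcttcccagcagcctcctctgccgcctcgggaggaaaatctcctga
MXI1: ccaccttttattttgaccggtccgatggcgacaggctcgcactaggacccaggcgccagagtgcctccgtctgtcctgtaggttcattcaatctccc
FNTB: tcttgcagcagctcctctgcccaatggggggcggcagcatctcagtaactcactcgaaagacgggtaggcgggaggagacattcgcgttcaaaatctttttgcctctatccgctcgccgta

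The MAX sequence held the E-box CACGTG and the MYCL sequence the SP1-type box CCCCGCCC, read on the opposite strand. The other 3 held none of the 5 motifs. In windows of 100 bp on either side of the summit, searched on both strands, CACGTG was in 4 of the 55 confident sites at the network genes and in 5.58% of all 30322 sites. The ETS core CGGAAG was in 6 of the 21 sites at promoters of any gene, against 27.2% of all promoter sites, but in 1 of the 12 at the members' own promoters. CCCCGCCC was in 2 of those 21, against 24.9%. The AP-1 element TGACTCA was in 7 of the 34 sites outside promoters, against 34.7% of such sites, and in 0 of the 21 at promoters, against 6.49%. The CREB element TGACGTCA was in 1 of the 55, against 1.20%.

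The peak lists differed greatly in length between treatments, which bears on every number below. EtOH libraries held 1853 to 4609 peaks at q ≤ 1e-7 and TAM libraries 21518 to 40735, while read depth was not recorded in the lists. As a check of the labels, a peak summit lay over a coding exon of S100A9 in all 6 libraries of S100A9-Flag and 1 of the 5 of S100A8-Flag, whereas a coding exon of S100A8 had one in 0 of the 11. The S100A8-Flag libraries were thus not marked by their own gene, and the check bears on S100A9 alone. The first comparison asked whether the network genes carried more peaks in transformed than in nontransformed cells. The S100A8 EtOH libraries held 9 and 10 peaks at the 10 genes, and the S100A9 EtOH libraries held 6, 6 and 8. In TAM, S100A8 had 44, 32 and 32 peaks there and S100A9 had 48, 54 and 65. Over the 5 EtOH libraries the mean was 7.8 ± 1.79 (SD, n = 5), over the 6 TAM libraries it was 45.8 ± 12.8 (SD, n = 6), and no TAM library overlapped the EtOH range.

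**Figure D1:**
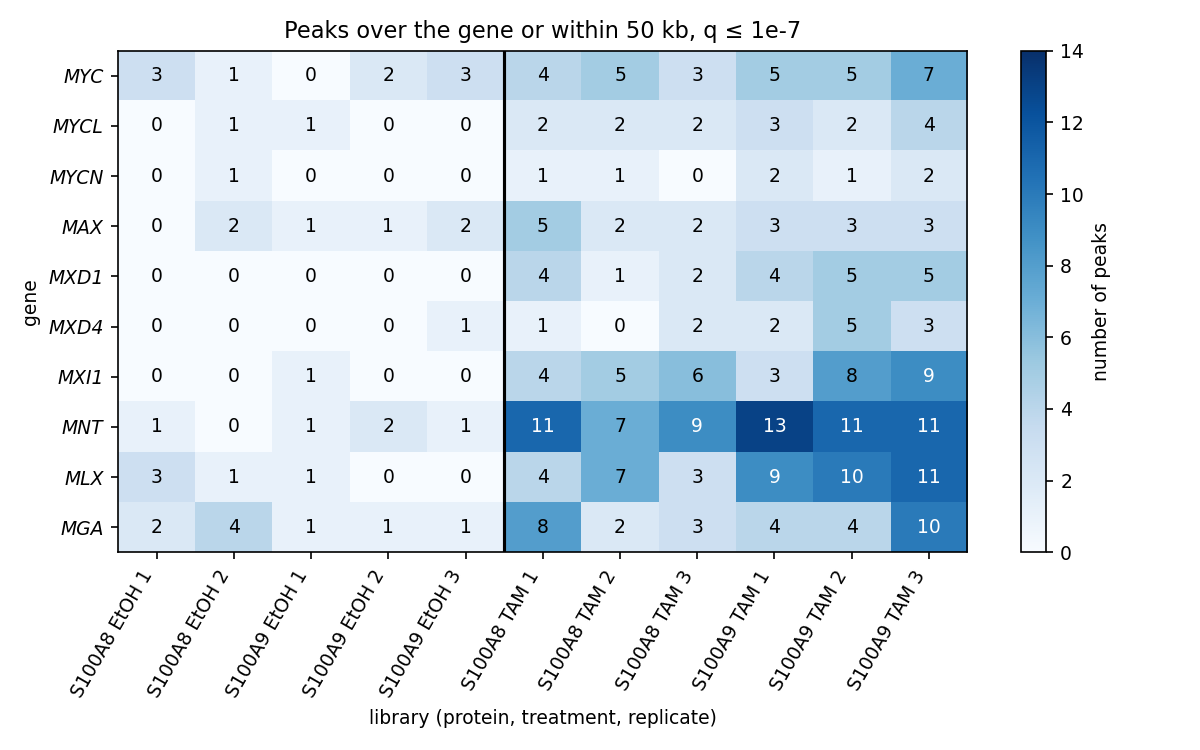
Number of peaks at q ≤ 1e-7 over each gene or within 50 kb of it (rows) in each of the 11 libraries (columns), with EtOH libraries left of the black line and TAM libraries right of it. MNT had the most TAM peaks in total, with 7 to 13 per library, and MXD1 was at 0 in every EtOH library.

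Of the 10 genes, 8 rose in number of peaks with TAM (exact permutation test of treatment within each protein over 200 arrangements, two-sided, Benjamini-Hochberg adjusted over all 18126 genes, adjusted p below 0.05), against 67.6% of all genes tested. The smallest p this design allows is 0.01. The median difference over the 10 genes was 3.08 peaks, and over all genes tested 2.42. The number of peaks was higher in every TAM library than in every EtOH library for 4 of the 10, MYCL, MXD1, MXI1 and MNT, against 40.2% of all genes. These 4 were called without any 1 of the 11 libraries, whereas MYC, MAX, MXD4 and MLX each lost their call when some library was left out, so that 4 to 6 were called, beside 46.4% to 53.0% of all genes. The count was 6 without S100A8 EtOH replicate 1 or S100A8 TAM replicate 3 and 4 or 5 without each of the other 9 libraries. At q ≤ 1e-10 the calls of MXD1, MXD4 and MXI1 were lost and 6 of 10 were called, beside 40.6% of all genes, including MGA, which was not called at q ≤ 1e-7. With every deposited peak the call of MYC was lost and 8 of 10 were called, beside 71.9% of all genes. With the same number of top peaks taken from every library (1853), 0 of 10 were called, and with summits over the gene body or promoter alone 0 of 10 were called. In both settings 0% of all genes tested passed.

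Among the MYC paralogs, MYC had the most peaks in both treatments. MYC itself (chr8:128747680-128755197, plus strand), the broadly acting growth regulator, had 3 and 1 peaks in S100A8 EtOH, 0, 2 and 3 in S100A9 EtOH, 4, 5 and 3 in S100A8 TAM and 5, 5 and 7 in S100A9 TAM. The treatments met at 3 peaks. The difference, averaged over the proteins, was 3.00 peaks (exact permutation p = 0.02, adjusted p = 0.0352). MYCL (chr1:40361100-40367928, minus strand), a paralog first known from lung cancer, had 0 and 1 peaks in S100A8 EtOH, 1, 0 and 0 in S100A9 EtOH, 2, 2 and 2 in S100A8 TAM and 3, 2 and 4 in S100A9 TAM. Here the treatments did not overlap, with a difference of 2.08 peaks (exact permutation p = 0.01, adjusted p = 0.0219). MYCN (chr2:16080672-16087129, plus strand), the paralog amplified in neuroblastoma, had 0 and 1 peaks in S100A8 EtOH, 0 in all 3 S100A9 EtOH libraries, 1, 1 and 0 in S100A8 TAM and 2, 1 and 2 in S100A9 TAM. It had the fewest TAM peaks in total of the 10, and its difference of 0.917 peaks did not pass (exact permutation p = 0.1, adjusted p = 0.121).

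MAX (chr14:65472892-65569413, minus strand), the common partner of the network, had 0 and 2 peaks in S100A8 EtOH, 1, 1 and 2 in S100A9 EtOH, 5, 2 and 2 in S100A8 TAM and 3, 3 and 3 in S100A9 TAM. Its treatments overlapped at 2 peaks, with a difference of 1.83 (exact permutation p = 0.03, adjusted p = 0.0444). MAX lost its call when summits at promoters of other protein-coding genes were left out (exact permutation, adjusted p = 0.297), a setting added once the data had been seen.

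Of the MAX-binding repressors of the MXD family and MNT, 4 of 4 rose, beside 67.6% of all genes, by 2.00 to 9.42 peaks. MXD1 (chr2:70124820-70170077, plus strand) had 0 peaks in all 5 EtOH libraries, 4, 1 and 2 in S100A8 TAM and 4, 5 and 5 in S100A9 TAM (difference 3.50, exact permutation p = 0.01, adjusted p = 0.0219). MXI1 (chr10:111967363-112047123, plus strand), also known as MXD2, had 1 peak in 1 S100A9 EtOH library and 0 in the other 4 EtOH libraries. In TAM it had 4, 5 and 6 peaks with S100A8 and 3, 8 and 9 with S100A9, all above the EtOH libraries (difference 5.67, exact permutation p = 0.01, adjusted p = 0.0219). MNT (chr17:2287367-2304398, minus strand), a repressor expressed in resting and dividing cells alike, had 1 and 0 peaks in S100A8 EtOH and 1, 2 and 1 in S100A9 EtOH. It rose to 11, 7 and 9 in S100A8 TAM and 13, 11 and 11 in S100A9 TAM, the largest difference of the 10 genes at 9.42 peaks (exact permutation p = 0.01, adjusted p = 0.0219). MXD4 (chr4:2249159-2263836, minus strand) had 0 peaks in both S100A8 EtOH libraries, 0, 0 and 1 in S100A9 EtOH, 1, 0 and 2 in S100A8 TAM and 2, 5 and 3 in S100A9 TAM. Its treatments overlapped, with a difference of 2.00 (exact permutation p = 0.03, adjusted p = 0.0444). The MXD4 call was lost without summits at promoters of other genes (exact permutation, adjusted p = 0.218), where 43.9% of all genes were called.

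MLX (chr17:40719090-40725257, plus strand) had 3 and 1 peaks in S100A8 EtOH, 1, 0 and 0 in S100A9 EtOH, 4, 7 and 3 in S100A8 TAM and 9, 10 and 11 in S100A9 TAM. The 3 highest counts were the 3 S100A9 TAM libraries, and the difference over both proteins was 6.17 peaks (exact permutation p = 0.02, adjusted p = 0.0352). Of the 49 MLX peaks over the 11 libraries, 46 lay outside its own gene body and promoters. With gene bodies and promoters alone the MLX difference was 0.167 peaks (exact permutation, adjusted p = 0.987), a setting where 0 genes passed. MGA (chr15:41913332-42065279, plus strand), the longest of the 10 genes, had 2 and 4 peaks in S100A8 EtOH, 1 in each S100A9 EtOH library, 8, 2 and 3 in S100A8 TAM and 4, 4 and 10 in S100A9 TAM. Its treatments overlapped widely and its difference of 3.17 peaks did not pass (exact permutation p = 0.05, adjusted p = 0.0682).

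Because the lists differed in length, the same comparison was made on peaks per 1000 peaks of the library. The 10 genes together held 2.08 and 2.17 per 1000 in S100A8 EtOH and 1.67, 3.24 and 1.74 in S100A9 EtOH. In TAM the values were 1.498, 1.33 and 1.49 with S100A8 and 1.88, 2.25 and 1.596 with S100A9. The EtOH mean was 2.18 ± 0.629 (SD, n = 5) and the TAM mean 1.67 ± 0.337 (SD, n = 6), with overlapping ranges. The share differed for 0 of 10 genes at the adjusted threshold (exact permutation test, against 0% of all genes), while 3 of the 10 and 3979 of all genes had an unadjusted p under 0.05. MXD1 was higher by 0.126 per 1000 (exact permutation p = 0.01, adjusted p = 0.0831) and MXI1 by 0.169 (p = 0.03, adjusted p = 0.171, exact permutation). The share counted for MGA fell by 0.328 per 1000 (exact permutation p = 0.02, adjusted p = 0.153), which also misses the adjusted threshold. In every EtOH library all peaks counted for MGA lay outside its own gene body and promoters. Over all libraries 31 of its 40 peaks did.

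**Figure D2:**
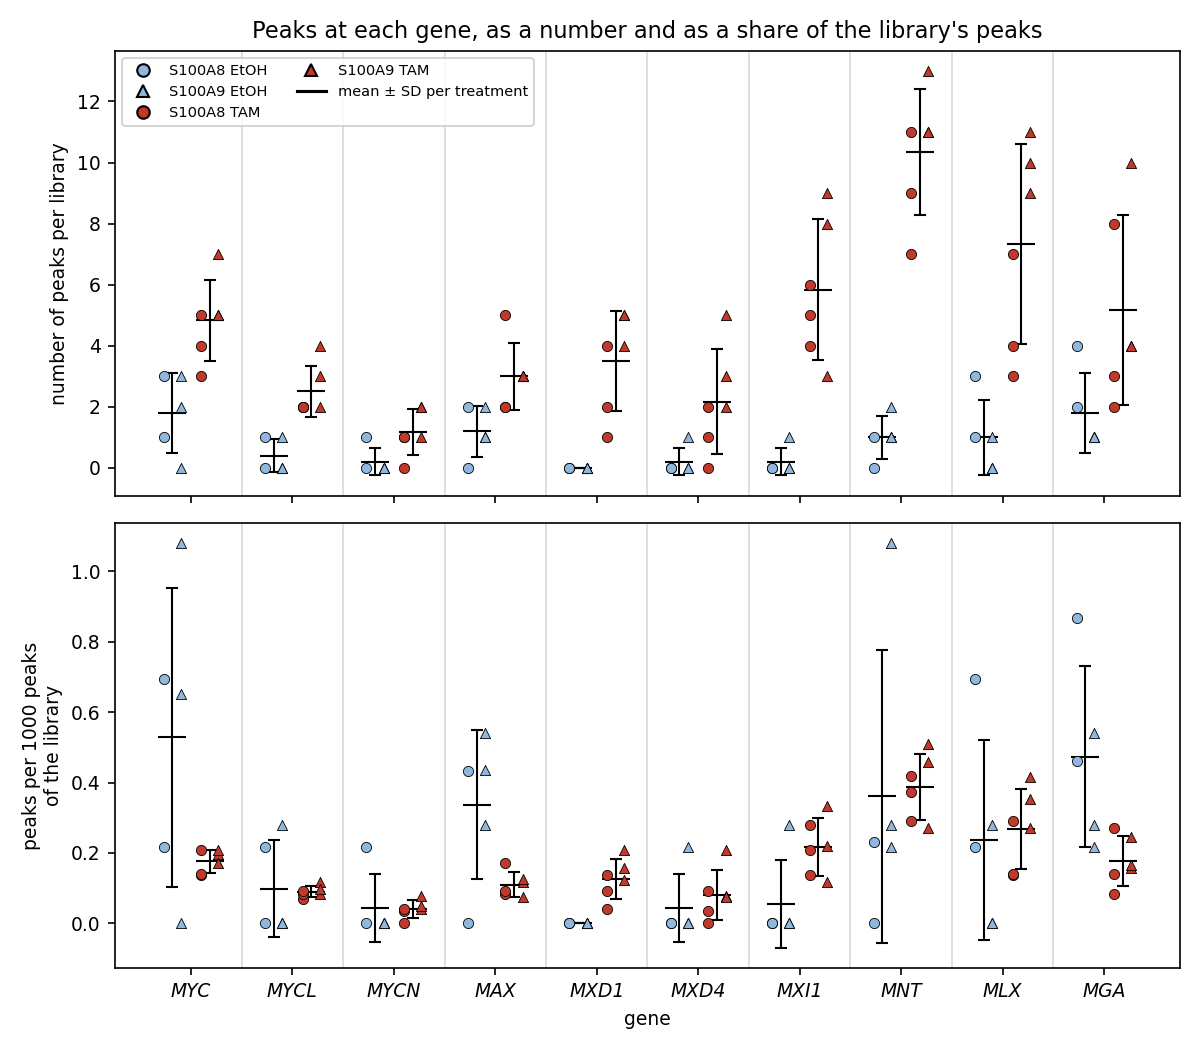
Peaks at each gene in every library as a number (top) and per 1000 peaks of that library (bottom), with circles for S100A8, triangles for S100A9, blue for EtOH, red for TAM and black bars for the mean ± SD over the 5 EtOH and 6 TAM libraries. In number the TAM libraries sit above EtOH most clearly at MNT and MXI1, whereas as a share the treatments overlap at every gene except MXD1, which was at 0 in EtOH.

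The proteins were then compared with each other. The number of peaks differed between S100A9 and S100A8 for 0 of 10 genes (exact permutation test of the protein within each treatment, against 0% of all genes), with 0 of the 10 and 130 of all genes at an unadjusted p under 0.05. The difference, averaged over the treatments, favored S100A9 at 9 of the 10 genes, all but MGA, as it had at 62.0% of all genes tested. The effect of TAM differed between the proteins for 0 of 10 genes at the adjusted threshold, against 0% of all genes, and 387 of all genes had an unadjusted p under 0.05. The 1 gene of the 10 among these was MLX, with 2.67 more peaks in TAM for S100A8 and 9.67 more for S100A9, a difference of 7 peaks (exact permutation p = 0.02, adjusted p = 1).

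Confident sites, those with overlapping peaks in at least 2 replicates of 1 protein and treatment, were merged over the 4 conditions into 30322 sites, of which 55 lay at the 10 genes. Of these, 12 were at a promoter of the gene itself (1500 bp upstream to 250 bp downstream of a coding TSS), 9 at a promoter of another gene, 11 elsewhere in the gene body and 23 in the flank. The 21 promoter sites stand beside 31.2% of all 30322 sites at a promoter. A peak in at least 1 EtOH library was present at 18 of the 55, against 31.1% of all sites, and 9 of the 55 had a peak in all 6 TAM libraries, against 14.3%. Of the 37 sites with no EtOH peak at q ≤ 1e-7, 20 had a weaker deposited EtOH peak. Sites confident for both proteins in TAM numbered 20, against 42.8% of all sites, which is 76.9% of the 26 S100A8 TAM sites and 41.7% of the 48 S100A9 TAM sites at these genes. The TAM lists averaged 30074 peaks for S100A9 and 25005 for S100A8, and the part of list length in this asymmetry was not tested.

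**Figure D3:**
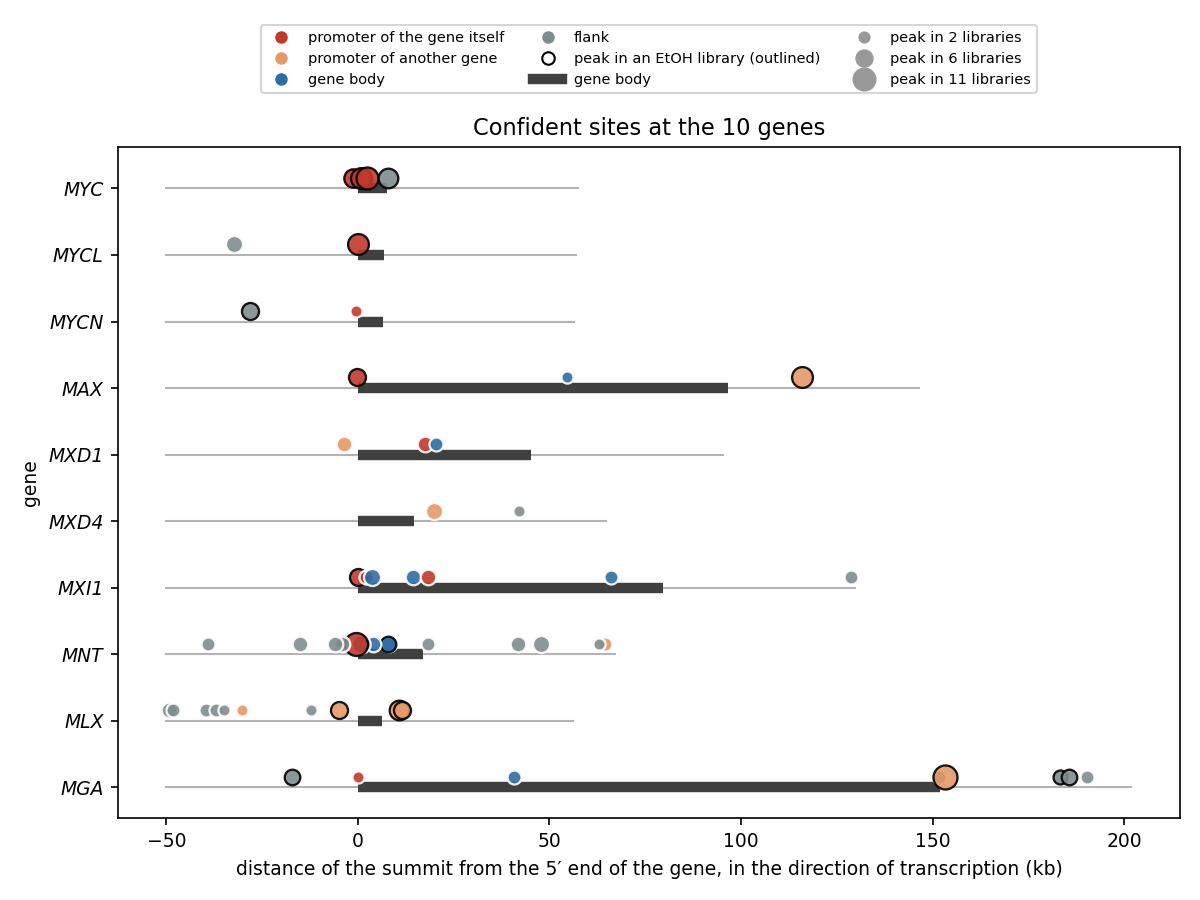
Summits of the 55 confident sites along the 10 genes, as distance in kb from the 5′ end of the gene in the direction of transcription. Dark bars are gene bodies, grey lines the 50 kb windows, color the kind of place, point size the number of libraries with a peak, and a black outline a peak in at least 1 EtOH library. MNT and MLX carry the most sites, 14 and 10, and none of the 10 at MLX is at its own promoter.

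In nontransformed cells 2 of the 10 genes, MAX and MNT, had a confident promoter site, against 7.32% of all 20098 protein-coding genes. In transformed cells 8 of the 10 had one, all but MXD4 and MLX, against 46.0% of all genes. Both EtOH calls rested on S100A9 and neither was made without S100A9 EtOH replicate 2 (5.94% of all genes) or replicate 3 (5.21%). In TAM the count was 5 without S100A9 replicate 3, when MYCN, MAX and MGA were no longer called, beside 39.4% of all genes. With peaks of a single replicate accepted, MYC, MYCL, MXI1 and MLX were added in EtOH, beside 28.6% of all genes, and all 10 had a promoter site in TAM, beside 59.6%.

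MYC had 3 promoter sites, since its coding transcripts start at several places. The site at the canonical TSS (8 bp downstream) was called in all 6 TAM libraries, with a fold enrichment over input of 6.56, 8.54 and 6.39 for S100A8 and 15.4, 8.53 and 9.64 for S100A9. In EtOH it was called in S100A9 replicates 2 and 3, at 7.08 and 8.84, and those peaks did not overlap each other. The site in intron 1, 1642 bp from the canonical TSS, had peaks in 3 EtOH libraries and all 6 TAM libraries, and the third site, 1973 bp upstream, in 1 EtOH and 5 TAM libraries. Counting weaker deposited peaks, all 5 EtOH libraries had one at each of the first pair of sites. A site in the flank, 6944 bp downstream, was called in 1 EtOH and all 6 TAM libraries.

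The MYCL promoter was called in all 6 TAM libraries at 7.06, 15.2 and 13.9 for S100A8 and 7.31, 10.3 and 9.79 for S100A9, and in 1 EtOH library of each protein, at 7.87 and 8.57. Enrichment in those EtOH libraries was within the range of the TAM libraries, but libraries without a peak at q ≤ 1e-7 gave no value. The MYCN promoter was called only in S100A9 TAM replicates 1 and 3, at 8.57 and 5.99. At MAX the promoter was called in S100A9 EtOH replicates 2 and 3 at 7.85 and 9.46, in S100A8 TAM replicate 1 at 5.97 and in S100A9 TAM replicates 2 and 3 at 13.8 and 8.04. The other 3 TAM libraries had a deposited peak there that missed q ≤ 1e-7.

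Of the repressors, MNT had the most recurrent promoter site, called in 4 of 5 EtOH libraries, at 8.03 for S100A8 and 11, 7.91 and 6.597 for S100A9. In TAM it was called in all 6 libraries, at 10.3, 12.5 and 9.25 for S100A8 and 10.6, 7.75 and 8.17 for S100A9. Among the libraries with a peak, the treatments overlapped in enrichment. The other 13 MNT sites had an EtOH peak at q ≤ 1e-7 in 1 case, and 4 of them lay in introns 1 and 4 of MNT. One intron 1 site, 864 bp from the TSS, was called in all 6 TAM and 0 EtOH libraries. At that site 3 EtOH libraries had a weaker deposited peak that missed q ≤ 1e-7. The MXD1 promoter site, 4 bp from the canonical TSS, was called in 4 TAM libraries at 9.08 and 8.68 for S100A8 and 8.91 and 7.85 for S100A9, and all 5 EtOH libraries had a deposited peak there that missed q ≤ 1e-7. MXI1 had 3 promoter sites at alternative starts, 1 of them with an EtOH peak, and 3 more sites in introns 1 and 3.

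**Figure D4:**
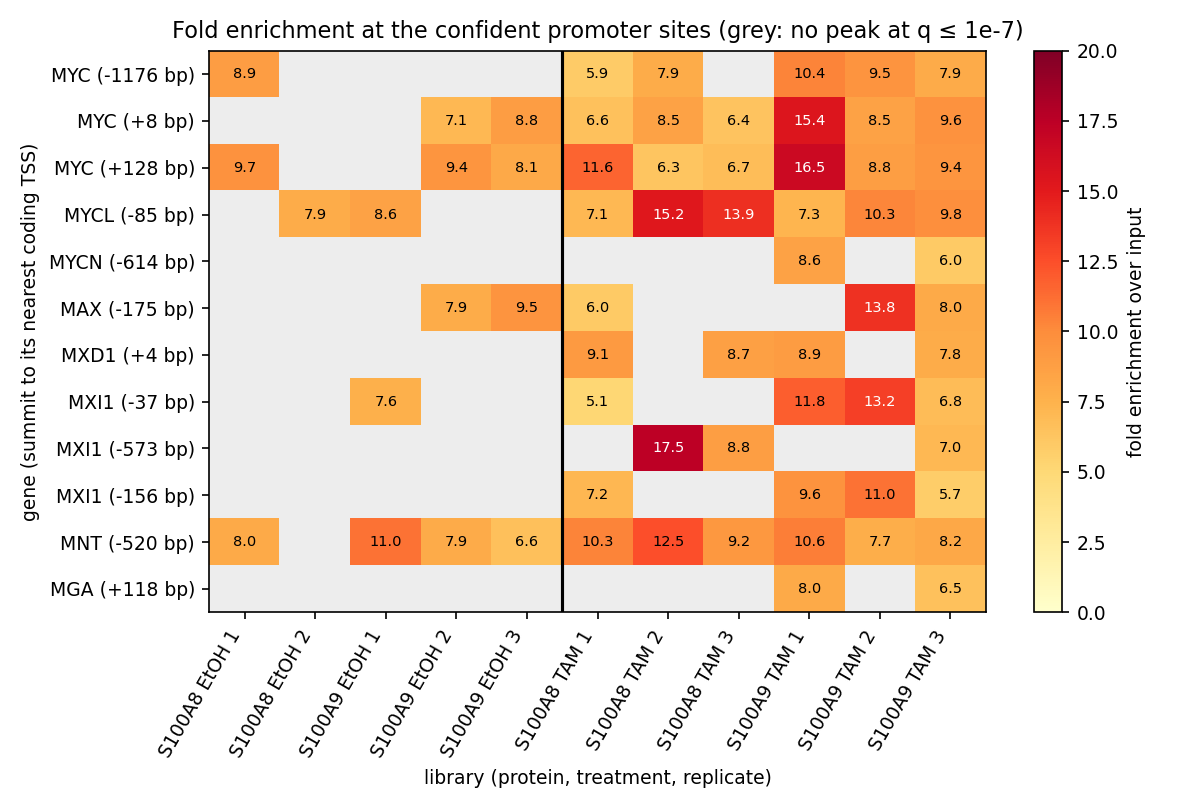
Fold enrichment over input at the 12 confident sites in promoters of the genes themselves, by library, with EtOH left of the black line and TAM right of it and grey where no peak reached q ≤ 1e-7. Each label gives the distance from the summit to the nearest coding TSS. The MNT site is filled in 10 of 11 libraries, and the MYCN and MGA sites in S100A9 TAM replicates 1 and 3 only.

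Several of the peaks counted for MXD4, MLX and MGA lay at promoters of their neighbors, as did 1 site each at MAX, MXD1 and MNT. At MNT, 35 of its 67 peaks over the 11 libraries lay outside its own gene body and promoters. With gene bodies and promoters alone the MNT difference was 3.58 peaks (exact permutation, adjusted p = 0.0598), a setting where 0 genes passed. The 10 MLX sites comprised 4 at promoters of NAGLU, a lysosomal enzyme gene, COASY, which encodes coenzyme A synthase, and PSMC3IP, a meiotic recombination gene with 2 sites, plus 6 in the flank. The PSMC3IP site 46 bp upstream of its TSS was called in 1 EtOH and all 6 TAM libraries. At MXD4 the more recurrent of 2 sites was the shared promoter of HAUS3 and POLN, called in 0 EtOH and 5 TAM libraries. A weaker deposited peak lay there in 1 EtOH library. Near MGA the MAPKBP1 promoter was the only site of the 55 called in all 11 libraries, at 13.3 and 10.6 in S100A8 EtOH, 9.29, 11.2 and 5.11 in S100A9 EtOH, 9.79, 12.1 and 10.7 in S100A8 TAM and 7.57, 10.7 and 18 in S100A9 TAM. Its enrichment overlapped between treatments. The MGA promoter itself was called in 2 S100A9 TAM libraries, at 8.04 and 6.51. A site over MAPKBP1 (chr15:42096627-42096821) was called in both S100A8 EtOH libraries, at 7.06 and 6.10, and in 1 TAM library, at 7.34.

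Within 500 kb of MYC the EtOH libraries held 5 and 6 peaks with S100A8 and 2, 6 and 6 with S100A9. The TAM libraries held 26, 25 and 24 with S100A8 and 28, 24 and 38 with S100A9, with no overlap between treatments. The difference on the log2(number + 1) scale was 2.27 (exact permutation p = 0.01, the smallest the design allows). It was lost when the same number of top peaks was taken from every library (-0.00682, exact permutation p = 1), and per 1000 peaks of the library the EtOH mean was 1.51 ± 1.01 (SD, n = 5) and the TAM mean 1.01 ± 0.0909 (SD, n = 6). For mean TAM peaks, 77.2% of genes had fewer within 500 kb than MYC, and for mean EtOH peaks 82.3%.

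The region held 27 confident sites, 11 between 50 and 500 kb upstream, 4 within 50 kb and 12 downstream. All 12 downstream sites lay over PVT1, a long noncoding RNA gene next to MYC. A peak in at least 1 EtOH library was found at 11 of the 27, against 31.1% of all sites, and 12 of the 27 were called in all 6 TAM libraries, against 14.3%. The most recurrent were 67.2 kb upstream and 213.6 kb downstream over PVT1, each called in 4 EtOH and 6 TAM libraries. The upstream one had an enrichment of 7.12 in S100A8 EtOH replicate 2 and 6.602, 8.76 and 6.86 in S100A9 EtOH, against 10.8, 9.85 and 12.5 in S100A8 TAM and 10.5, 10.2 and 11.1 in S100A9 TAM. Every TAM value there was above every EtOH value among the libraries with a peak. At the PVT1 site the EtOH values, 9.01 and 9.80 with S100A8 and 6.83 and 9.57 with S100A9, overlapped those in TAM, 7.94, 9.85 and 15.3 with S100A8 and 13.7, 11.3 and 6.86 with S100A9.

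**Figure D5:**
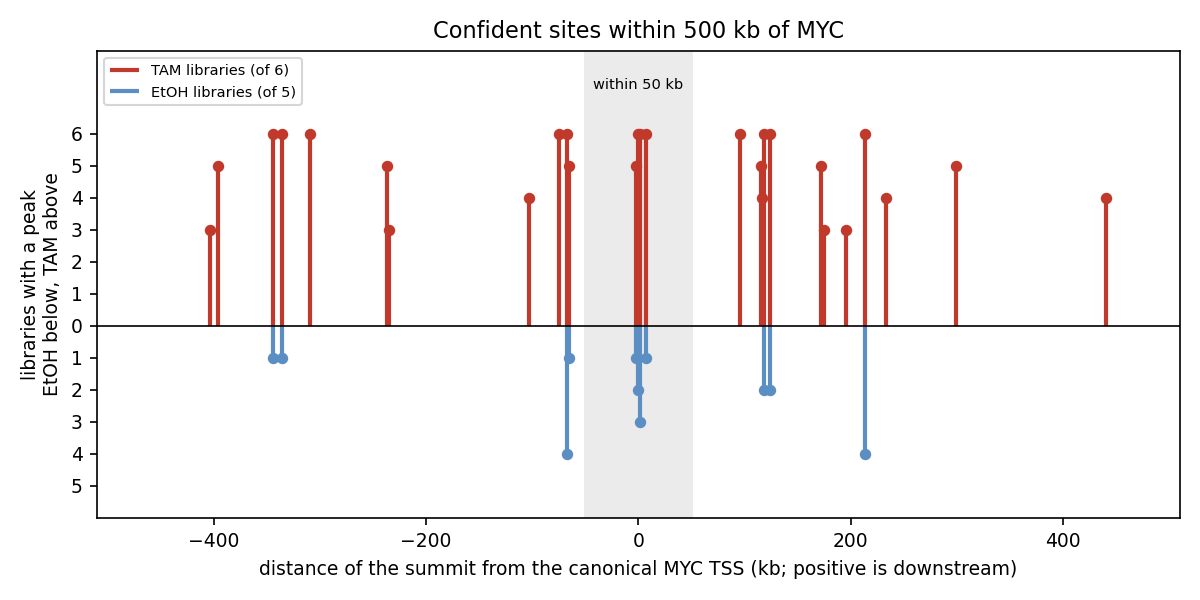
The 27 confident sites within 500 kb of MYC by distance in kb from its canonical TSS, with the number of TAM libraries with a peak above the axis and of EtOH libraries below it. The shaded band marks 50 kb on either side. Sites lie on both sides of MYC, and the 2 with peaks in 4 EtOH libraries are at 67.2 kb upstream and 213.6 kb downstream.

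The genes whose peak numbers followed MYC most closely over the 11 libraries, among 1170 genes with a mean of at least 5 peaks and no overlap with its window, were ZNF692 (Pearson r = 0.937), SEMA3B (r = 0.936) and PCSK6 (r = 0.931). The 11 points share the length of each library's peak list. Other genes of the pathway were taken from 5 lists with 43 members in all, of which 29 rose with TAM and 0 fell in number of peaks (exact permutation, adjusted over all genes), close to the 67.6% of all genes tested that rose. All 3 of the other helix-loop-helix zipper partners rose, MXD3 by 5.17, MLXIP by 4.00 and MLXIPL by 3.75 peaks (adjusted p = 0.0219 for each, exact permutation). Of the SIN3 corepressor partners 3 of 4 rose, with SIN3A higher by 4.08, and of the MGA partners in PRC1.6 4 of 5, with PCGF6 higher by 4.75. Among MYC cofactors and stability regulators 10 of 14 rose, including the MYC partner ZBTB17 by 4.33. Among MYC and MAX target genes 9 of 17 rose, including ODC1, the polyamine synthesis enzyme, by 6.83, while TERT, at 0.667, did not pass. Each of these counts stands beside the same 67.6% of all genes. The lists' median differences were 4.00, 1.96, 2.75, 2.75 and 2.00 peaks in that order, beside 2.42 over all genes tested. A confident promoter site was present at 4 of the 43 in EtOH, against 7.32% of all protein-coding genes, and at 33 in TAM, against 46.0%.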

How the data were processed

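ChIP-seq peaks of S100A8-Flag and S100A9-Flag in MCF-10A–ER-Src cells were used in 11 libraries. Inputs and RNA polymerase II libraries were not analysed here. Per the paper's methods, the authors used Bowtie2 and the hg19 genome, discarded reads without a unique position and ran MACS2 on each library against its own input. The deposited lists give, per peak, the fold enrichment over input (a ratio), −log10 p-value and −log10 q-value and a summit, for peaks down to q = 0.05. They hold no read counts, so read depth is unknown and no counting interval is given.

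Peaks with q ≤ 1e-7 were assigned by summit to GENCODE 44 genes lifted to GRCh37, the same build as hg19, and 0 peaks lay past a chromosome end. Groups came from the sample labels, which number the libraries as replicates, and the paper's methods speak of biological replicates. The members and gene lists were chosen with earlier results of these data known. All 10 members are named. Numbers of peaks per gene were compared by exact two-sided permutation of treatment within protein (or protein within treatment), adjusted by Benjamini-Hochberg over 18126 genes, with Python 3.11.15, numpy 2.4.6, scipy 1.17.1 and pandas 2.3.3, and the script was tested on simulated data. The sequences chosen, MYC left aside, are the 4 own-promoter sites and 2 other sites called in the most libraries. Alternatives covered the q threshold, equal numbers of top peaks, windows, TSS choice, replicate rule, permutation scheme and leaving out each library.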

Additional observations from a re-analysis of the deposited data

Results flagged for a closer look

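The change in MLX peaks with TAM was larger for S100A9 than for S100A8 by 7 peaks, the only gene of the 10 with an unadjusted p under 0.05 in that test (exact permutation p = 0.02, adjusted p = 1). Of the 49 peaks counted for MLX, 46 lay outside its own gene body and promoters.

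Single libraries stood apart from others of their treatment by Dixon's criterion. Its rate of about 1 in 20 groups by chance holds for continuous values and not for small tied counts. Within 500 kb of MYC these were S100A9 EtOH replicate 1 with 2 peaks, S100A9 TAM replicate 3 with 38 and, per 1000 peaks, S100A9 EtOH replicate 2 with 3.24. S100A9 TAM replicate 3 also had the longest peak list, 40735 peaks, and S100A9 EtOH replicate 2 the shortest, 1853; their part in these values was not tested. At single genes, MAX had 5 peaks in S100A8 TAM replicate 1, and MYCN, MXD4 and MXI1 had 1 peak in a single EtOH library each and 0 in the other 4. Where 4 values are tied at 0, any lone peak is flagged.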

How the results depend on the processing

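The count of 8 genes with more peaks in TAM was 0 with equal numbers of top peaks, 0 with gene bodies and promoters alone, 0 with the replicate block and 4 to 6 with 1 library left out, where fewer arrangements raise the smallest p to between 0.0167 and 0.025. Correlations of deviations were -0.0445 to 0.0411 over the 5 pairs of libraries sharing a replicate number and -0.0412 to 0.0445 over 10 other pairs. The 2 S100A8 EtOH libraries deviate as mirror images, and these values cannot settle whether replicates were processed together. With the replicate block no p can fall below 0.0625, which was also the value for the 500 kb around MYC (log2 difference 2.28, exact permutation). With equal numbers of top peaks that log2 difference was -0.00682 and the MYC difference -0.917 peaks. Permuted over all 11 libraries with no stratum, the share of 1 gene, MXD1, passed, with 2084 of all genes.

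Mean peaks at the 10 genes per library were 36.8 in EtOH and 102.7 in TAM with every deposited peak, 2.4 and 28.5 at q ≤ 1e-10, 3.8 and 3.5 with equal numbers of top peaks, 4 and 21 with gene bodies and promoters alone and, in a setting added once the data had been seen, 5.6 in EtOH without promoters of other genes. Genes with an EtOH promoter site numbered 7 with every deposited peak (32.7% of all genes), 0 at q ≤ 1e-10 (2.25%) and 1 with equal top peaks (3.55%). They numbered 6 with 1 replicate (28.6%), 0 with every replicate (4.54%) and 0 to 2 with 1 library left out (4.77% to 7.32%). In TAM they numbered 2 with equal top peaks (4.55%), 4 with every replicate (28.7%) and 5 to 8 with 1 library left out (39.4% to 46.0%). Confident sites, 55 of 30322 at the main settings, numbered 88 of 59598 with every deposited peak and 5 of 2227 with equal top peaks. They numbered 23 of 30322 with gene bodies and promoters alone, 97 of 70990 with 1 replicate and 28 of 13590 with every replicate. For single genes, 136 of the alternative values kept the direction and the side of the threshold, 66 lost the call, 3 gained it, each of them for MGA, and 1 changed sign.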
